A study of Rattus norvegicus with 12 samples.

Results

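Cytosolic ribosomal proteins were measured in the rat left ventricle by 55 probe sets for 48 genes, out of 31042 probe sets on the array that were not controls. Each probe set combines several short probes that bind the same transcript, and its level is given here as a log2 value. A probe set was included if its only gene symbol was Rpl or Rps with a number and any paralog letters, or Rpsa, Rplp0, Rplp1 or Rplp2. The rule used names alone and no measured value. It left out kinases of ribosomal protein S6 and the mitochondrial ribosomal proteins. It also left out 36 probe sets with several symbols of which 1 or more was ribosomal. Of the 55 probe sets, 52 for 45 genes passed the filter on low values and were tested. The untested ones were Rpl28, with a mean of 3.82 over 12 arrays, Rps4y2, with 4.65, and Rpl26l1, with 4.69. The filter used the mean over all 12 arrays, at 4.94. The faintest member tested was Rpl39l1, with a mean of 5.05.

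The study asked how the heart differs between rats given different amounts of physical activity. All animals were female Sprague-Dawley rats aged 16 months. In the voluntary exercise group (EX) the rats had lifelong access to regular exercise. In the physical activity group (PA) they spent 1 hour in a large box 2 times a week, and in the sedentary group (SED) they lived only in a standard cage. Each group had 4 arrays, and each array held RNA pooled from 4 animals, so an array does not show single animals. By the design text each group had 12 animals, which fill 3 such pools, and how animals were shared over 4 arrays is not given in the sources used here. Nothing in the labels says that the pools were separate animals, so p-values measure the spread between these arrays, which may be partly technical.

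Ribosomal proteins assemble with ribosomal RNA into the large and small subunits of the ribosome, which translate every cytosolic mRNA. They are needed in near equal amounts, and their mRNAs are among the most abundant in most tissues. Many of these mRNAs start with a pyrimidine stretch, the 5′ terminal oligopyrimidine or TOP motif, through which the kinase mTOR adjusts their translation rather than their level. In heart muscle, ribosome content is known to follow the growth of the myocytes, and the heart also carries Rpl3l, a muscle-specific paralog of Rpl3.

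The sequence around the transcription start is shown for the genes on which the results below turn, since the TOP motif lies there. RefSeq promoters of build GRCr8 were matched by gene ID for 41 of the 48 genes. Each run is 30 bases, 10 before and 20 from the annotated start of the transcript chosen in that table, with the longest unbroken run of C and T in capitals. The first 5 are the genes that lay lowest in the array SED 1 against the other SED arrays.
Rpl3: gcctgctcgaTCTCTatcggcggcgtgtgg
Rps24: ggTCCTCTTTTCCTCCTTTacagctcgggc
Rpl6: TTacatcactagatggcgggtgaaaaggcg
Rps23: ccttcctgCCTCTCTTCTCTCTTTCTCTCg
Rpl35a: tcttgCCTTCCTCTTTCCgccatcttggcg
The next 4 are those that lay highest there, apart from Rps9.
Rps13: ttcctacctcgTTCTCTCTTTgcttccaga
Rps3: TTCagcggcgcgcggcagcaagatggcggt
Rpl18: aCCTggtctagcaggaggcgccatcatggt
Rpl19: ccagcaagCTCTTTCCTTTCgctgctgcgt
The last pair are the genes whose EX and SED arrays did not overlap.
Rpl11: CTTgaagcttgtttggtgctggggagcatc
Rps15: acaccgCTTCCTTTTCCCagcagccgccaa

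These windows lie at chr7:113507971-113508000 on the minus strand for Rpl3 and chr16:96507-96536 on the plus strand for Rps24. Rpl6 lies at chr12:41011671-41011700 (minus), Rps23 at chr2:23814507-23814536 (plus) and Rpl35a at chr11:81235002-81235031 (minus). Rps13 lies at chr1:180009641-180009670 (minus), Rps3 at chr1:163195757-163195786 (minus) and Rpl18 at chr1:105325260-105325289 (plus). Rpl19 lies at chr10:83519054-83519083 (plus), Rpl11 at chr5:153560783-153560812 (minus) and Rps15 at chr7:10068096-10068125 (minus). Each window spans the end of the upstream region and the first bases of the transcript. A run of 7 or more C or T on the sense strand was present in the 30 bases of 24 of the 41 ribosomal protein genes (58.5%), against 17.0% of all 33469 promoters in the table. The letters CTTTC stood on the sense strand of 14 of them (34.1%), against 3.39% of all promoters, and on the opposite strand of 0 of them, against 3.87%. The letters CCGGAAG, part of the site that ETS factors bind, occurred on either strand within the 300 bases of 10 of the 41 genes (24.4%), against 8.75% of all promoters. Long pyrimidine runs stood both in genes that were low in SED 1 (Rps24, with 17 bases, and Rps23, with 21) and in genes that were high there (Rpl19, with 12, and Rps13, with 10). Such letters describe the annotated start and do not show which start is used in these hearts.

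The 12 arrays had medians between 5.64 and 5.72 over all their values. SED 1 stood apart from the other 11 in several measures. Its 5S rRNA control probe set read 7.72, against 5.15 to 6.74 elsewhere, and its difference between the 3′ and 5′ probe sets of Gapdh was 1.56, against 0.96 to 1.35. For Actb this difference was 1.70 in SED 1 and 1.37 to 1.67 in the others, and the interquartile range of all values was 3.58, against 3.73 to 4.04. Over the tested probe sets alone SED 1 did not differ in this range, at 3.03, against 2.97 to 3.05 in the other arrays. The control probe sets for bioB and bioC were highest in SED 4, at 11.33 and 11.17, followed by SED 1, at 11.14 and 11.02. In the remaining arrays they read 10.45 to 10.94 and 10.34 to 10.70. SED 4 was kept where SED 1 was left out. The cardiomyocyte markers measured were high on every array, from 11.80 (Ttn) to 13.22 (Myh6), and the mean deviation of the 7 lay within 0.051 of 0 throughout. That mean joins markers that went opposite ways in SED 1. Myh7 was highest there, at 12.92 against a mean of 12.41, and Ttn lowest, at 11.80 against a mean of 12.14. Of the atrial markers, Myl7 ranged from 4.09 to 10.88 between arrays, and its part in the results was not tested. In whole ventricle RNA, fewer cells of a type and less RNA per cell cannot be told apart. Differences from SED are therefore also given without SED 1 where that array moved them.

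Most ribosomal protein probe sets gave strong and steady signals. Of the 52 tested, 39 (75%) lay in the upper 10% of all tested probe sets by mean, above 10.6. Probes differ in how strongly they bind, so these levels were not compared between genes. The median SD within a group was 0.103 over the members, 0.101 over the upper 10% by mean and 0.224 over all tested probe sets. The 95% interval of an EX minus SED difference had a median half-width of 0.202, so that smaller differences were hard to detect. The narrowest range over the 12 arrays was that of Rpl27, a large subunit protein, which stayed between 12.34 and 12.48. The widest range was that of Rps13, a small subunit protein, which spanned 1.99.

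No ribosomal protein probe set passed an adjusted p of 0.05 in EX against SED, in PA against SED, in EX against PA or in the F test over the groups. In each of these the count was 0 of 52, and it was 0% of all 18626 tested probe sets as well, by limma with Benjamini-Hochberg adjustment. At an unadjusted p under 0.05 the count was again 0 of 52 in each of the 3 comparisons of groups. Among all tested probe sets, 9.3% were higher and 6.3% lower in EX than in SED at that level. The shares were 9.28% higher and 5.97% lower in PA than in SED, and 1.43% higher and 1.43% lower in EX than in PA. The lowest adjusted p of any member was 0.333 (Rpl30) in EX against SED, 0.38 (Rpl11) in PA against SED and 0.465 (Rpl30) in the F test. In EX against PA each adjusted p was 1.

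Differences between EX and SED were small. The probe set mean was higher in EX for 37 members, lower for 14 and equal for 1, with a median difference of 0.040. Of all tested probe sets 59.7% were higher in EX, with a median of 0.055, and of the upper 10% by mean 58.4%, with 0.020. For 43 of 52 members the groups differed by less than 1.1-fold, as they did for 1563 of 1861 probe sets in the upper 10% by mean and 8244 of 18626 of all tested. Large subunit probe sets had 26 higher and 8 lower of 35, with a median of 0.03, and small subunit probe sets had 11 higher and 6 lower of 17, with a median of 0.05. Without SED 1, 16 of 35 large subunit probe sets were higher in EX, with a median of -0.0050, and 7 of 17 small subunit probe sets, with a median of -0.015.

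Rpl11, a large subunit protein that with Rpl5 can bind Mdm2 and so restrain the breakdown of p53, was the only member with all EX arrays above all SED arrays. It read 10.98, 11.06, 11.07 and 11.02 in EX, against 10.66, 10.88, 10.95 and 10.90 in SED. The gap between the groups was 0.03, since the lowest EX array was 10.98 and the highest SED array 10.95. The difference was 0.19 (95% interval -0.01 to 0.38, limma adjusted p = 0.35), and without SED 1 it was 0.12 (adjusted p = 0.547). PA arrays read 11.04, 11.01, 11.14 and 10.89 for Rpl11 and overlapped those of SED, with a difference of 0.17 (-0.02 to 0.37, adjusted p = 0.38) and of 0.11 without SED 1.

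Rps15, a small subunit protein needed for export of the small subunit from the nucleus in yeast, was the only member with all EX arrays below all SED arrays. It read 11.41, 11.57, 11.58 and 11.50 in EX, against 11.64, 11.66, 11.67 and 11.65 in SED. The 4 SED arrays, SED 1 included, lay within 0.03 of each other. The difference was -0.14 (-0.31 to 0.03, limma adjusted p = 0.43), and it was -0.15 without SED 1 (adjusted p = 0.469). Such a lack of overlap was found for 1 member higher and 1 lower in EX, against 4.39% and 3.51% of all tested probe sets, and 1 of 52 is 1.92%.

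**Figure D1:**
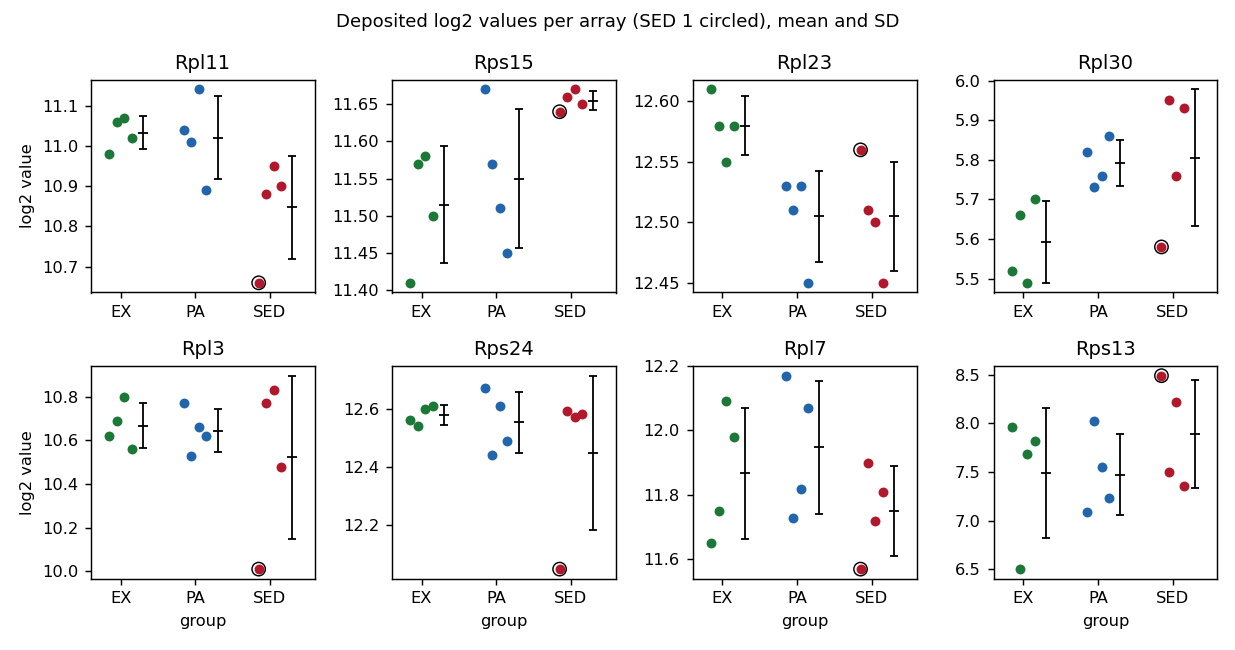
Deposited log2 values (y axis, not starting at 0) of 8 ribosomal protein genes by group (x axis: EX, PA, SED), with 1 point per array, the SED 1 array circled, and the mean with its SD (n = 4) beside the points. The EX arrays of Rpl11 lie above and those of Rps15 below all SED arrays, and SED 1 is the lowest array for Rpl3 and Rps24 and the highest for Rps13.

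Rpl30, a large subunit protein, had the smallest p among members lower in EX. It read 5.52, 5.66, 5.49 and 5.70 in EX, against 5.58, 5.95, 5.76 and 5.93 in SED, at a faint signal not far above the filter. SED 1 lay within the EX range, and the other SED arrays were above all EX arrays. The difference was -0.21 (-0.43 to 0.01, limma adjusted p = 0.333) and -0.29 (-0.48 to -0.10, adjusted p = 0.188) without SED 1. The other members with the smallest p on the higher side were Rps3a, Rps15a, Rpl26 and Rpl24, whose differences were 0.11, 0.11, 0.09 and 0.09, and 0.04, 0.06, 0.06 and 0.05 without SED 1. On the lower side they were Rpl18, Rps13 and Rpl3l, with -0.10, -0.40 and -0.09, and -0.06, -0.20 and -0.06 without SED 1. Their adjusted p lay between 0.556 (Rps3a) and 0.647 (Rpl3l).

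PA against SED gave a similar picture of small differences, with the same SED arrays in both comparisons. Of the 52 members, 35 were higher in PA, 15 lower and 2 equal, with a median of 0.04. Of all tested probe sets 60.9% were higher in PA, with a median of 0.06. The large subunit had 25 higher and 8 lower of 35, with a median of 0.05, and the small subunit 10 higher and 7 lower of 17, with a median of 0.01. Without SED 1 these were 19 of 35 higher, with a median of 0.015, and 7 of 17, with a median of -0.018. No member had PA and SED arrays that did not overlap, in either direction, against 4.88% higher and 3.51% lower among all tested probe sets.

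After Rpl11, the higher members with the smallest p in PA were Rpl7, Rps3a, Rpl35a and Rpl26. Rpl7, a large subunit protein, read 12.17, 11.73, 11.82 and 12.07 in PA, against 11.57, 11.90, 11.72 and 11.81 in SED. Its PA arrays fell into a high pair and a low pair, and the low pair lay inside the SED range. The difference was 0.20 (-0.09 to 0.49, limma adjusted p = 0.482) and 0.14 without SED 1. The differences of Rps3a, Rpl35a and Rpl26 were 0.11, 0.13 and 0.09, and 0.04, 0.03 and 0.06 without SED 1. The lower members were Rps15, Rps13, Rpl3l, Rps28 and Rpl18, with differences of -0.11, -0.42, -0.10, -0.10 and -0.08 and adjusted p from 0.534 (Rps15) to 0.637 (Rpl18). Without SED 1 these differences were -0.11, -0.22, -0.07, -0.08 and -0.04.

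**Figure D2:**
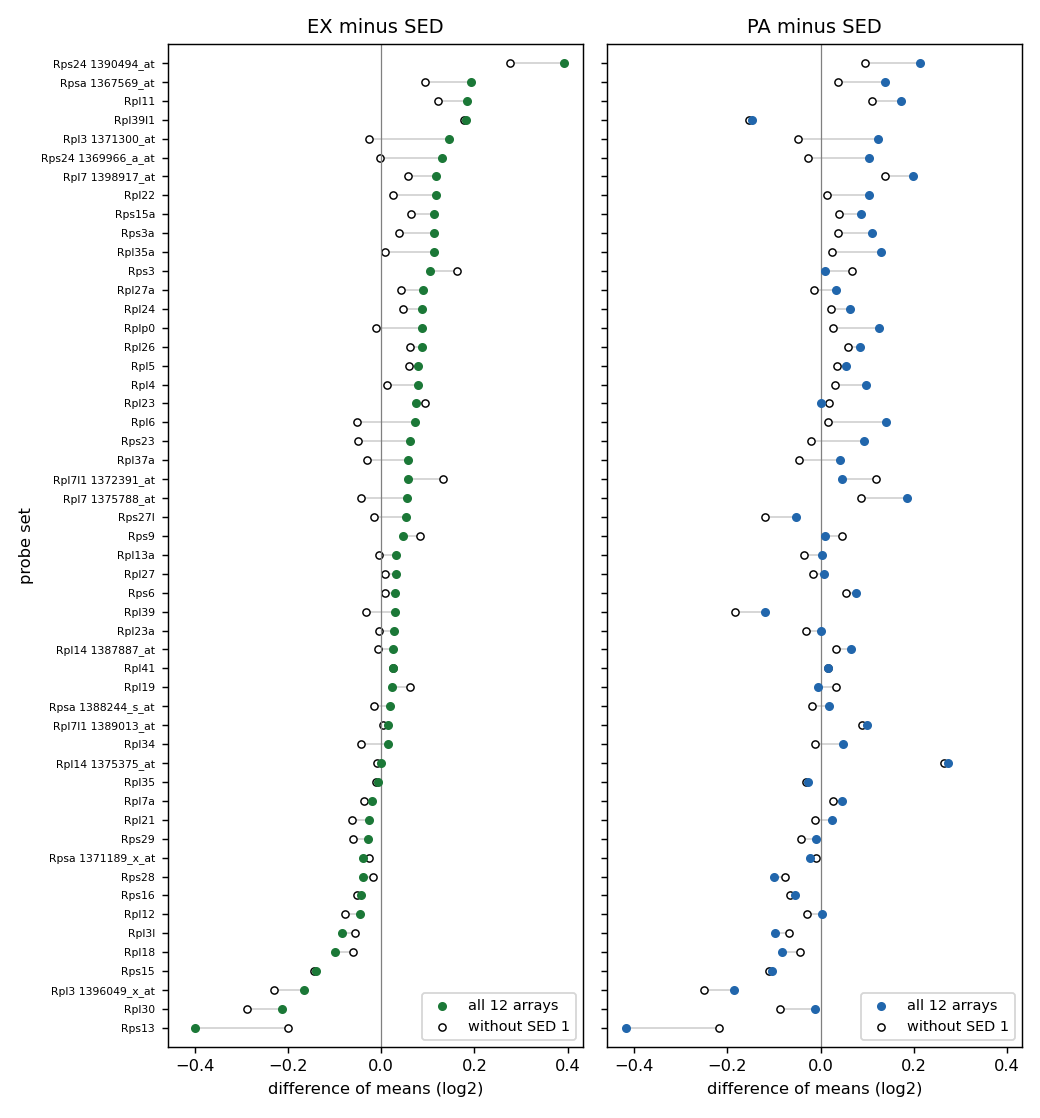
Difference of group means on the log2 scale (x axis) for each of the 52 tested probe sets (rows, ordered by EX minus SED), for EX minus SED at left and PA minus SED at right. Filled points use all 12 arrays and open points leave out SED 1: with it left out, 23 of 52 probe sets are above 0 for EX and 26 of 52 for PA, against 37 and 35 with all arrays.

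Between EX and PA, 32 members were higher in EX and 20 lower, with a median of 0.01, against 46.9% higher and a median of -0.01 among all tested probe sets. The count rested in part on single arrays: 21 were higher in EX with PA 4 left out (median -0.0079), and 23 with EX 3 left out (median -0.0042). A total of 47 members were within 1.1-fold, against 1734 of 1861 in the upper 10% by mean and 12419 of 18626 of all tested. Rpl23, a large subunit protein that can also bind Mdm2, was higher on each EX array than on any PA array. It read 12.61, 12.58, 12.55 and 12.58 in EX, against 12.53, 12.51, 12.53 and 12.45 in PA. The gap between the groups was 0.02 and the difference 0.08 (-0.08 to 0.23, limma adjusted p = 1). Rpl30 was lower on each EX array than on any PA array, with 5.82, 5.73, 5.76 and 5.86 in PA and a difference of -0.20 (-0.42 to 0.02, adjusted p = 1). One member each way compares with 1.33% higher and 1.45% lower among all tested probe sets. The largest EX minus PA difference was 0.33 for Rpl39l1, a faint probe set that ranged over 1.03 across the arrays. The other members of smallest p were Rpl39, Rps27l and Rps3 on the higher side, with 0.15, 0.11 and 0.10, and Rpl7l1, Rpl7, Rpl7a and Rps6 on the lower side, with -0.09, -0.08, -0.07 and -0.05.

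SED 1 carried much of what separated SED from the other groups. It was the lowest of the 12 arrays for 26 of 52 members (50.0%), and it was the lowest for 34.2% of all tested probe sets. It was the highest for 5 members (9.62%), against 21.1% of all. The mean deviation of the 52 members from their own means over the arrays was -0.127 in SED 1. In the other arrays it lay between -0.052 (EX 1) and 0.083 (EX 3).

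**Figure D3:**
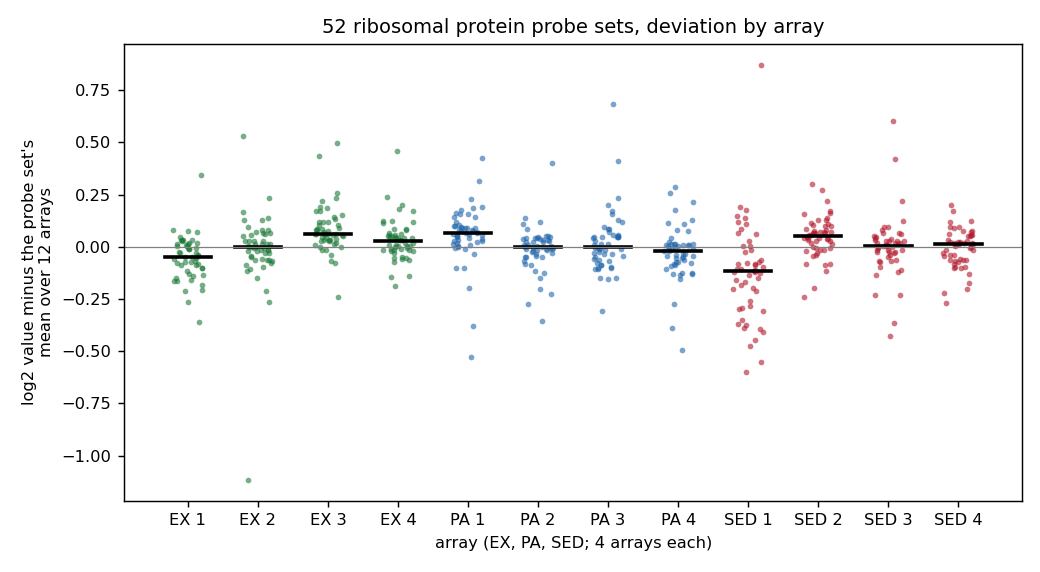
Deviation of each of the 52 tested ribosomal protein probe sets from its own mean over 12 arrays (y axis, log2) by array (x axis, EX then PA then SED), with 1 point per probe set and a bar at the median. The median of SED 1 is -0.12, and those of the other 11 arrays lie between -0.05 (EX 1) and 0.07 (PA 1).

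Against the mean of SED 2 to 4, SED 1 was lower for 41 of 52 members and higher for 10, while it was lower for 55.6% of all tested probe sets. The median deviation was -0.14, against -0.07 over all tested probe sets and -0.03 over the upper 10% by mean. SED 1 lay more than 0.2 below for 20 members and more than 0.2 above for 3. Of all tested probe sets 40.5% lay that far below and 28.2% above, and of the upper 10% by mean 28% and 14.4%. Rpl3, the large subunit protein near the peptidyl transferase centre, read 10.01 in SED 1, against 10.77, 10.83 and 10.48 in SED 2, 3 and 4. That was 0.68 below their mean, and no EX or PA array of Rpl3 was under 10.53. Rps24 read 12.05 in SED 1, against 12.59, 12.57 and 12.58 in the other SED arrays. Rps24 is a small subunit protein mutated in some human patients with Diamond-Blackfan anaemia. The other 3 lowest were Rpl6 (-0.50), Rps23 (-0.45), which lies at the decoding centre, and Rpl35a (-0.42).

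The members that were higher in SED 1 were led by Rps13, at 8.49 there, against 7.50, 8.22 and 7.35 in the other SED arrays. Rps13 also read 6.50 in EX 2, so its range was wide with or without SED 1. The fainter of 2 probe sets for Rpl7l1, a paralog of Rpl7, read 9.72 in SED 1, which was 0.30 above the mean of the other SED arrays. By each gene's brightest probe set, Rps3, a small subunit protein at the mRNA entry channel, was 0.23 above the other SED arrays, and Rpl18, Rpl19 and Rps9 were 0.16, 0.15 and 0.14 above. SED 1 was therefore not lower for all members alike. The 36 probe sets with several symbols had a median deviation of -0.15 in SED 1, against -0.03 to 0.07 in the other arrays.

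**Figure D4:**
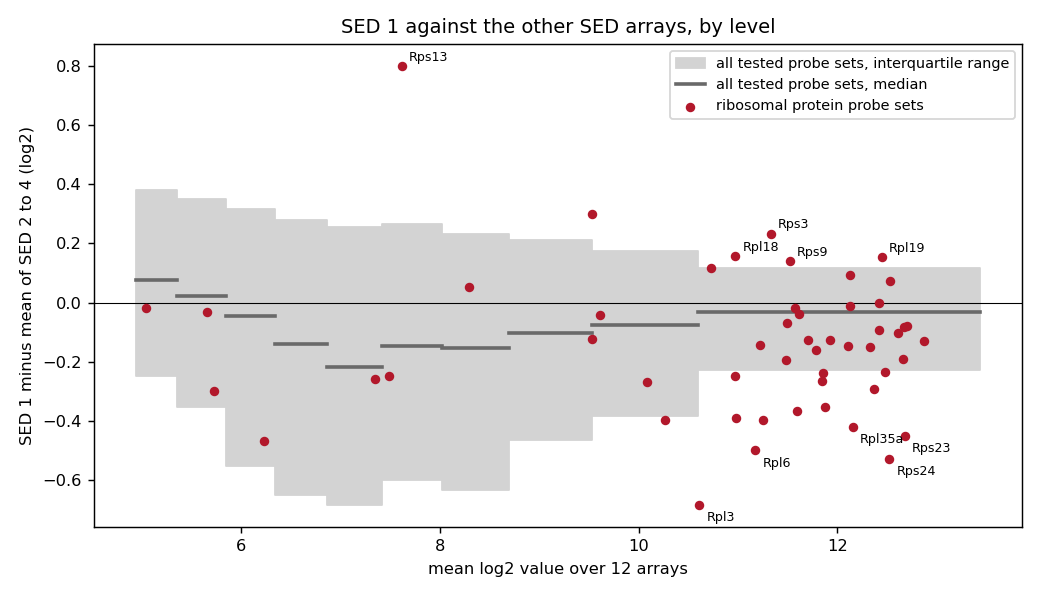
SED 1 minus the mean of SED 2 to 4 (y axis, log2) against the mean log2 value over 12 arrays (x axis) for the 52 tested ribosomal protein probe sets, with the median and interquartile range of all tested probe sets in 10 bins by level behind them. In the upper 10% by level the median is -0.03 over all tested probe sets and -0.14 over the 39 ribosomal protein probe sets there.

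Other lists deviated in SED 1 too, though the markers of a list did not all go the same way. The mean deviation of 5 endothelial markers was 0.37 in SED 1, against -0.14 to 0.08 elsewhere. That of 7 fibroblast markers was -0.27, against -0.26 to 0.23 elsewhere, and that of 10 leukocyte markers -0.23, against -0.18 to 0.71. The 2 neutrophil markers stood at -1.63, against -1.37 to 2.12, and the 2 erythroid markers at -0.62, against -0.33 to 0.50. No tested marker was listed at 0, but the filter lay at 4.94 and the neutrophil marker S100a8 read 3.63 in SED 1, its lowest array. The other neutrophil marker, S100a9, read 5.76 there, above its lowest value of 5.29. Of the fibroblast markers, Col1a1 (10.29) and Pdgfra (12.08) were highest in SED 1, and Dcn (10.25) and Lum (9.83) lowest. Of the leukocyte markers, Ptprc was lowest there (6.78), while C1qc (7.92) lay above its mean of 7.59. The endothelial marker Kdr (11.62) lay below its mean of 11.69, against the direction of its list. The highest leukocyte and neutrophil means were those of SED 3, where the ribosomal protein probe sets had a median deviation of 0.01. The part of these differences, and of the control probe sets above, in the ribosomal protein values of SED 1 was not tested.

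Without SED 1, the members were split near evenly. In EX against SED 23 were higher and 29 lower, with a median of -0.0054, while 56.9% of all tested probe sets were higher in EX, with a median of 0.03. In PA against SED 26 were higher and 26 lower, with a median of 0.0021, while 60.3% of all were higher in PA. No member passed an adjusted p of 0.05, against 0.0107% of all tested probe sets in EX against SED (2 probe sets) and 0% in PA against SED. At an unadjusted p under 0.05, 0 members were higher and 2 lower in EX, against 8.13% and 5.89% of all. In PA 0 members were higher and 1 lower, against 7.29% and 4.97% of all.

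The 2 members lower in EX were Rpl30 and the fainter of 2 probe sets for Rpl3, and the 1 lower in PA was that same Rpl3 probe set. It read 7.27, 7.36, 7.28 and 7.29 in EX, 7.40, 7.12, 7.24 and 7.36 in PA, and 7.27, 7.65, 7.47 and 7.47 in SED. SED 1 was the one SED array inside the EX and PA ranges. Without it the difference was -0.23 for EX (-0.43 to -0.03, limma adjusted p = 0.289) and -0.25 for PA (-0.45 to -0.05, adjusted p = 0.308). The array design marks this probe set as one whose probes may bind other transcripts, and the brighter Rpl3 probe set differed by -0.03 for EX and -0.05 for PA without SED 1.

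No protein named for its special role passed the test in any comparison. Rplp0, the base of the stalk that recruits elongation factors, averaged 11.27 ± 0.13 in EX, 11.30 ± 0.07 in PA and 11.18 ± 0.20 in SED (SD, n = 4 each). SED 1 read 10.88 and was the lowest array for Rplp0, and without it EX minus SED was -0.01. Rps6, whose phosphorylation by the S6 kinases is a readout of mTOR activity, averaged 12.66 ± 0.07 in EX, 12.71 ± 0.07 in PA and 12.63 ± 0.05 in SED. The array measures the mRNA of Rps6 and not its phosphorylation. Rpsa, also known as the laminin receptor, averaged 11.23 ± 0.07 in EX, 11.22 ± 0.07 in PA and 11.21 ± 0.11 in SED with its brightest probe set. By its suffix that probe set matches several similar genes. The Rpsa probe set marked as specific averaged 10.35 ± 0.16 in EX, 10.30 ± 0.17 in PA and 10.16 ± 0.20 in SED. Its EX minus SED difference was 0.19 (-0.09 to 0.47, limma adjusted p = 0.494), and 0.09 without SED 1. For the faintest Rpsa probe set, which could bind unrelated sequence, it was -0.04.

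Paralogs could be compared in 3 pairs that both had a tested probe set. Rpl3l, the muscle paralog that replaces Rpl3 in mouse heart and skeletal muscle ribosomes, averaged 10.71 ± 0.06 in EX, 10.70 ± 0.11 in PA and 10.79 ± 0.06 in SED. Its EX minus SED difference was -0.09 (-0.27 to 0.10), and that of Rpl3 was 0.15 (-0.20 to 0.49) with SED 1 and -0.03 without it. In SED 1 Rpl3l lay 0.12 above the other SED arrays, at 10.88, while Rpl3 lay 0.68 below. Rpl7l1, a paralog of Rpl7, averaged 9.59 ± 0.12 in EX, 9.67 ± 0.13 in PA and 9.57 ± 0.03 in SED, and Rpl7 varied more, with SDs of 0.20, 0.21 and 0.14. Rpl39 averaged 7.55 ± 0.09 in EX, 7.40 ± 0.16 in PA and 7.52 ± 0.28 in SED, and Rpl39l1 varied more in EX and PA. Rps27l, which p53 can induce in human cells, averaged 10.14 ± 0.14 in EX, 10.03 ± 0.19 in PA and 10.08 ± 0.14 in SED. Rpl22 averaged 11.64 ± 0.16 in EX, 11.63 ± 0.06 in PA and 11.53 ± 0.19 in SED, where SED 1 read 11.25, and EX minus SED was 0.12 with SED 1 and 0.03 without it. Rplp1, Rplp2, Rps27a, Rpl22l1, Rps27, Rpl36a, Rpl36al, Rpl39l, Rps4x, Rpl10 and Rpl10l had no probe set with a single symbol and were not analysed here.

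Of the 6 genes with more than 1 tested probe set, Rpl3 and Rps24 disagreed most, with probe set differences up to 0.31 and 0.26 apart. Rpl14 and Rpsa followed, level at 0.23. Rpl14 reached this in EX minus PA, with -0.27 and -0.04, and Rpsa in EX minus SED, with 0.19 and -0.04. The bright Rps24 probe set differed by 0.13 between EX and SED, and the faint one, which read 5.87, 6.40, 6.73 and 6.69 in EX and 5.68, 6.15, 6.00 and 6.29 in SED, by 0.39 (-0.06 to 0.84, limma adjusted p = 0.39). Without SED 1 the bright one differed by -0.0025 and the faint one by 0.28. The faint Rpl14 probe set differed by 0.27 between PA and SED, where 1 array (PA 3, at 6.34) was high, and the bright one by 0.07. Both Rpl7 probe sets read highest in PA 1 (12.17 and 11.41) and lowest in SED 1 (11.57 and 10.61). Many ribosomal protein genes have processed copies elsewhere in the genome, so a probe set can bind more than 1 transcript. By the suffix of the array design, 49 of the 55 were specific, 3 matched several transcripts of 1 gene, 1 matched several similar genes and 2 could bind unrelated sequence.

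Genes that work with the ribosomal proteins were set beside them. Of all 10244 tested genes, 56.9% were higher in EX than in SED, with a median of 0.03, and 59.7% in PA, with a median of 0.05. Without SED 1 these shares were 53.5% in EX and 59.1% in PA. Of 15 tested translation factors and other TOP mRNAs, 11 were higher and 4 lower in EX than in SED, with a median of 0.06, and 0 passed the adjusted p of 0.05. In PA 11 were also higher and 4 lower, with a median of 0.11 and 0 past the threshold. The share higher was 73.3% in both comparisons. The smallest p were those of Eif4b, an initiation factor (PA minus SED 0.26, limma adjusted p = 0.291), Ipo5, an importin that carries ribosomal proteins into the nucleus (0.23, adjusted p = 0.304), and Eef1b2, an exchange factor of elongation (0.31, adjusted p = 0.325). Without SED 1 these differences were 0.18, 0.19 and 0.15. The list's mean deviation in SED 1 was -0.19, the lowest of the 12 arrays, and without SED 1 its median was 0.04 in EX and 0.03 in PA. Of 48 tested factors of RNA polymerase I and ribosome assembly, 28 (58.3%) were higher and 20 lower in EX, with a median of 0.05, and 0 passed. In PA 32 (66.7%) were higher and 16 lower, with a median of 0.08, and 0 passed. Without SED 1, 28 (58.3%) were higher in EX, with a median of 0.04, and 39 (81.2%) in PA, with a median of 0.07. The smallest p in EX was that of Polr1h, a subunit of RNA polymerase I, which averaged 7.50 ± 0.11 in EX and 6.89 ± 0.05 in SED (difference 0.60, adjusted p = 0.115, and 0.61 without SED 1). Polr1f and Taf1b, of the same machinery, differed by 1.13 and 0.70 in EX, with adjusted p of 0.194 and 0.148. SED 1 was the lowest array for both, at 4.47 and 4.66, below the filter level of 4.94. Without SED 1 their differences were 0.65 and 0.51. Other members of the list were lower in EX. The polymerase I subunits Polr1c, Polr1a and Polr1g differed by -0.35, -0.26 and -0.28, and Eif6 by -0.45. Without SED 1 these 4 differed by -0.405, -0.26, -0.295 and -0.34. The 73 mitochondrial ribosomal protein genes had 40 (54.8%) higher and 32 lower in EX than in SED. In PA 58 (79.5%) were higher and 14 lower. Without SED 1 these counts were 21 (28.8%) and 52 in EX and 41 (56.2%) and 32 in PA. In SED 1 the mean deviation was -0.29 for the mitochondrial list and -0.19 for the polymerase I and assembly list. Both lay below the -0.127 of the cytosolic ribosomal protein probe sets, so a low SED 1 was not particular to these.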

How the data were processed

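RNA of the left ventricle, 6 µg per array, was labelled with biotin for Affymetrix Rat Genome arrays, per the labels' protocols. The authors deposited 12 columns of log2 values in a table with 31099 rows. MAS5 and RMA appear in the submitters' processing notes with no role stated, so background correction and exact scale are not given in the sources used here. Values were used as deposited, without the 57 control rows. Symbols came from the platform annotation: 20826 probe sets had 1 symbol, 436 several and 9780 none listed. RefSeq kept the symbol of 53 members, and 2 gene IDs were not found there.

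Probe sets in the upper 60% by mean (18626) were fitted with limma 3.58.1 in R 4.3.3: 3 group means, 12 arrays, 9 residual degrees of freedom, moderated two-sided tests, Benjamini-Hochberg over all tested probe sets, threshold 0.05. The number of arrays limits the precision. The fit was tested on simulated data. Where a gene had several tested probe sets, the one of highest mean stood for it. Named genes were, per comparison, the 5 of smallest p in each direction, with fixed ribosomal proteins and paralog pairs. Also named were the 5 genes farthest off in SED 1 each way and up to 3 per comparison list. The 3 whose probe sets disagreed most were added, and Rpsa, level with the last of them, was among the fixed proteins. Members and lists were chosen with earlier results of these data known. The alternatives tried are in the closing section. Figures used matplotlib.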

Additional observations from a re-analysis of the deposited data

Results flagged for a closer look

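Within each group of 4 arrays, the array farthest out was compared with the rest for the named ribosomal protein genes and for the median deviation of all tested members, which made 96 groups, of which 6 stood out at Dixon's critical value for 4 values. Chance gives about 1 in 20 for groups picked without regard to their values. That rate does not hold here, since some genes were named because SED 1 lay far off, Rps24 and Rps23 among them. Others, such as Rps3a, were named for a small p against SED, so the flags on SED 1 are not separate evidence about that array. Of the 6, 4 were SED 1 arrays that lay below SED 2 to 4: Rps24 at 12.05, against 12.57 to 12.59, and Rps23 at 12.29, against 12.71 to 12.76, with Rps27l at 9.88, against 10.13 to 10.16, and Rps3a at 12.08, against 12.36 to 12.40. The remaining pair were single high arrays. Rpl19 read 12.64 in EX 3, against 12.40 to 12.42 in the other EX arrays. Rplp0 read 11.41 in PA 1, against 11.26 to 11.28 in the other PA arrays. The median deviation of the members as a whole did not stand out in any group by this measure.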

How the results depend on the processing

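The count of ribosomal protein probe sets past the threshold was 0 in all 3 comparisons and in the F test under every alternative run: quantile normalization, centred array medians, no filter (55 members), a filter at the upper 40% (48 members), a variance trend with robust estimation, array weights, the arrays of the compared groups alone (not for the F test), the averaged probe sets of a gene (45 genes), each of the 12 arrays left out in turn, and a replicate block. The count of members higher in EX than in SED ranged from 23 (SED 1 left out) to 40 (EX 1 left out), against 37 with all arrays. For PA against SED it ranged from 26 (SED 1) to 39 (SED 2), against 35. For EX against PA it ranged from 21 (PA 4) to 35 (PA 1), against 32. With quantile normalization the share of all tested probe sets higher in EX than in SED was 50.0%, against 59.7% as deposited, and 35 of 52 members were higher; for PA these were 50.7%, against 60.9%, and 27 members. With array weights, in which SED 1 had the lowest weight (0.147), 30 members were higher in EX and 27 in PA. Adding the 36 probe sets with several symbols, chosen after seeing the data, gave 60 of 88 higher in EX and 55 of 88 in PA against SED. The median difference kept its sign apart from EX against SED without SED 1 and EX against PA without EX 3 or PA 4, where it was below 0. Of 723 values of named genes under the alternatives, 4 had the opposite sign, 3 of them with SED 1 left out. Of the same values 0 passed the threshold, and the lowest limma adjusted p was 0.119. A further count, of values that moved by 1 SD within groups, was 0, but that SD was taken over all 12 arrays. Leaving out 1 array could not move a value by that much, so this 0 says nothing about those alternatives. The replicate block gave 0 members past the threshold and a median of 0.04 in EX against SED; same-numbered arrays correlated between -0.208 and 0.134 in their deviations, so the numbers were not taken to pair arrays. Faint signal limits Rpl30, Rpl39l1 and the second probe sets of Rps24 and Rpl14, which lie between 5.05 and 6.23, near the filter at 4.94.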
